A study of Mus musculus with 20 samples.

Results

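Oligodendrocyte and astrocyte genes were followed in RNA from pools of the apical coil of the mouse cochlea, as a possible gauge of central nerve tissue in each pool. The 9 genes were Mog, Mobp, Ermn, Hapln2, Aspa, Olig1 and Olig2, which are known as oligodendrocyte genes, and Gfap and Aqp4, which are known as astrocyte genes. They were 9 of the 24411 genes listed in the deposited tables. They were chosen by cell type knowledge and by their measured levels and genotype differences in these same libraries, so their genotype differences are described here without a test.

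Bulk poly(A) RNA-seq was made from sensory epithelium and spiral ganglion dissected from 4 mice per pool, in 20 libraries. Control mice were heterozygous (Bai1tm2b/+) and carried 1 copy of the same allele as their homozygous littermates (Bai1tm2b/tm2b). The allele removes coding exons of Adgrb1, the gene that encodes the adhesion receptor BAI1, in every cell of the animal, and leaves a lacZ cassette. At postnatal day 22 (P22) there were 3 pools of each genotype in read counts, and at P7 there were 3 further pools of each genotype in counts (replicates 5 to 7) and 4 of each as TPM rounded to whole numbers (length-scaled transcript abundances, replicates 1 to 4). The total per library was 35726000 to 40350400 counts at P22 and 31108600 to 58807200 at P7. Adgrb1 was 142 ± 7.34 CPM (counts scaled to the size of the library) in Bai1tm2b/+ and 93.3 ± 2.51 in Bai1tm2b/tm2b at P22 (SD, n = 3 pools each), and no library of one genotype reached the other. In the P7 TPM libraries Adgrb1 was 9.57 ± 1.91 and 9.58 ± 1.17 TPM (SD, n = 4 pools each), so the total of this gene did not check the genotype labels there. Each library was a separate pool of mice, and p-values measure the spread between these pools.

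Oligodendrocytes wrap axons of the brain and of the central stretch of the cranial nerves, whereas Schwann cells make the myelin of the peripheral stretch, and the boundary between them lies along the auditory nerve where it leaves the cochlea. OLIG1 and OLIG2 are transcription factors of the whole oligodendrocyte lineage, while myelin proteins such as MOG and MOBP appear when the cells mature. Astrocytes fill the same central stretch, but Aqp4, a water channel gene, is also transcribed in supporting cells of the organ of Corti, and Gfap, an intermediate filament gene, is also transcribed in some peripheral glia. In bulk RNA, fewer cells of a type and less RNA per cell cannot be told apart.

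In the GENCODE annotation of GRCm38 (mm10), Mog lies at chr17:37010743-37023398, Mobp at chr9:120149707-120181484 and Hapln2 at chr3:88021750-88027583. Ermn lies at chr2:58045113-58052864 and Aspa at chr11:73304992-73329596. Olig1 (chr16:91269772-91271933) and Olig2 (chr16:91225457-91228677) are neighbours on the same strand. Gfap lies at chr11:102887336-102900912. Of the exon bases of Olig1, 7.26% overlap the opposite-strand gene Gm15966, and of those of Ermn, 6.52% overlap the opposite-strand gene Galnt5. No strand setting was found for the counting, so reads from these stretches could belong to either gene.

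RefSeq promoter sequences were found for 7 of the 9 genes. The sequences upstream of 3 myelin genes that moved together across the libraries are shown, because these hold matches to motifs of oligodendrocyte regulators. Capitals mark a match on either strand to ACAAAG (the core bound by SOX factors), CAGCTG (an E-box) or CTGGNAC (a motif known for MYRF, the regulator of central myelin genes), and the 3 searches did not overlap one another. Each sequence is given 5′ to 3′ on the strand of its gene (GRCm38.p6), and bases inside the GENCODE gene were left out.
Mobp, chr9:120149492-120149706, plus strand: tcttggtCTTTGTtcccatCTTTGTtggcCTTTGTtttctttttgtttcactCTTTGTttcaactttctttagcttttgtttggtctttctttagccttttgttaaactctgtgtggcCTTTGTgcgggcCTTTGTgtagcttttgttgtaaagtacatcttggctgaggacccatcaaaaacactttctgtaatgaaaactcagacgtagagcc
Mog, chr17:37023399-37023648, minus strand: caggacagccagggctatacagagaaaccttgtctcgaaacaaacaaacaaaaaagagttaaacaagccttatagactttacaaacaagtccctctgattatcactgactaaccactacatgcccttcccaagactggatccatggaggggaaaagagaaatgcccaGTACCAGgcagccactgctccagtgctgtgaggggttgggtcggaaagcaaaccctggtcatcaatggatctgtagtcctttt
Hapln2, chr3:88027584-88027761, minus strand: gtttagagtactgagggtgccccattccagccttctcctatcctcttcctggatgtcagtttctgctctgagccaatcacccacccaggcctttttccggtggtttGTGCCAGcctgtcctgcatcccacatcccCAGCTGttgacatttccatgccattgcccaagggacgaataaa
The Mobp sequence held 6 ACAAAG matches, all read as CTTTGT on the strand of the gene, at 243 to 120 bases before the RefSeq start. Mog held 1 CTGGNAC match at 83 bases before its start. Hapln2 held 1 CTGGNAC match at 144 bases and 1 CAGCTG match at 115 bases. In the 250 bases before the start of each of 27025 genes, ACAAAG was present in 16.5%, CAGCTG in 12.8% and CTGGNAC in 16.0%. Neither Ermn, Olig2 nor Gfap held any of the 3 motifs in this window, and Aspa held 1 CAGCTG match. A match describes letters and is not evidence of binding.

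All 9 genes were detected in every library in counts. Levels between genes were compared as CPM per kilobase of the mean coding transcript. In the P22 control pools, Mobp (145 CPM per kb) and Gfap (100 CPM per kb) had the highest levels, then Mog (59.7) and Aqp4 (56.5). Aspa (16.3), Olig1 (15.5), Hapln2 (13.96) and Ermn (10.3) followed, and Olig2 (2.53) was lowest. Mog and Aqp4 were neighbours whose library ranges overlapped on this scale. The order depends on the transcript used. Per kilobase of the longest coding transcript Gfap was highest (99.6), followed by Mobp (55.0), Mog (40.8) and Aqp4 (17.9), and Aspa (10.7) lay below Olig1 and Hapln2.

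At P22 the oligodendrocyte genes had a higher mean level in Bai1tm2b/tm2b pools than in controls. The summed level of the 7 genes was 351, 370 and 390 CPM in control replicates 1 to 3, and 681, 784 and 471 CPM in Bai1tm2b/tm2b replicates 1 to 3. The control pools were close to each other, and the Bai1tm2b/tm2b pools were spread from 1.27 to 2.12 times the control mean, with replicate 3 lowest. The ratio of the means was 0.80 on the log2 scale.

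The myelin genes followed this order. Mobp, a basic protein gene of compact central myelin, was 171, 171 and 200 CPM in controls and 360, 425 and 242 CPM in Bai1tm2b/tm2b. Its fitted log2 difference was 0.92 (SE 0.16). The 2 genotypes did not overlap, and the gap between the highest control and the lowest Bai1tm2b/tm2b pool was narrow beside the spread among the Bai1tm2b/tm2b pools. Mog, a surface glycoprotein gene of the outer myelin layer, was 66.2, 75.5 and 67.1 CPM in controls and 121, 127 and 82.5 CPM in Bai1tm2b/tm2b. Its log2 difference was 0.67 (SE 0.14), again with Bai1tm2b/tm2b replicate 3 nearest to the controls. Ermn, a cytoskeletal gene of late oligodendrocytes, was 35.8, 38.5 and 37.9 CPM in controls and 54.1, 71.3 and 42.6 CPM in Bai1tm2b/tm2b (log2 difference 0.58, SE 0.15). Here replicate 2 stood above the other Bai1tm2b/tm2b pools.

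Hapln2, a link protein gene of the matrix at central nodes of Ranvier, was 23.3, 23.0 and 25.4 CPM in controls and 44.2, 49.5 and 33.1 CPM in Bai1tm2b/tm2b. Its log2 difference was 0.82 (SE 0.13). Aspa, the gene of the enzyme that cleaves N-acetylaspartate, was the most even of the 9, with 18.5, 18.4 and 18.9 CPM in controls and 29.0, 30.2 and 27.0 CPM in Bai1tm2b/tm2b. Its log2 difference was 0.63 (SE 0.07), and it was 0.60 to 0.67 with 1 pool left out.

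The lineage transcription factors were less even between pools than Aspa. Olig1 was 30.5, 36.5 and 33.5 CPM in controls and 58.0, 67.5 and 37.1 CPM in Bai1tm2b/tm2b, with a log2 difference of 0.69 (SE 0.17). Bai1tm2b/tm2b replicate 3 was only just above the highest control. Olig2 was 5.41, 7.21 and 6.55 CPM in controls and 13.97, 13.6 and 7.09 CPM in Bai1tm2b/tm2b (log2 difference 0.86, SE 0.23). For Olig2 the genotypes overlapped, since Bai1tm2b/tm2b replicate 3 lay below control replicate 2.

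The astrocyte genes were spread in the same way. Gfap was 233, 322 and 236 CPM in controls and 412, 574 and 382 CPM in Bai1tm2b/tm2b, with a log2 difference of 0.79 (SE 0.16) and no overlap. Aqp4 was 82.1, 101 and 88.8 CPM in controls and 112, 165 and 101 CPM in Bai1tm2b/tm2b, with a log2 difference of 0.48 (SE 0.15). Its genotypes overlapped at control replicate 2 and Bai1tm2b/tm2b replicate 3.

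The other 8 genes moved more than Aspa when 1 pool was left out. Aqp4 was at 0.24 and Ermn at 0.37 without Bai1tm2b/tm2b replicate 2, and without replicate 3 they were at 0.61 and 0.74. Mobp ran from 0.74 to 1.12, Mog from 0.56 to 0.84, Hapln2 from 0.70 to 0.97 and Gfap from 0.59 to 0.96. Olig1 ran from 0.51 to 0.90 and Olig2 from 0.70 to 1.11, so all 9 stayed above 0.

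**Figure D1:**
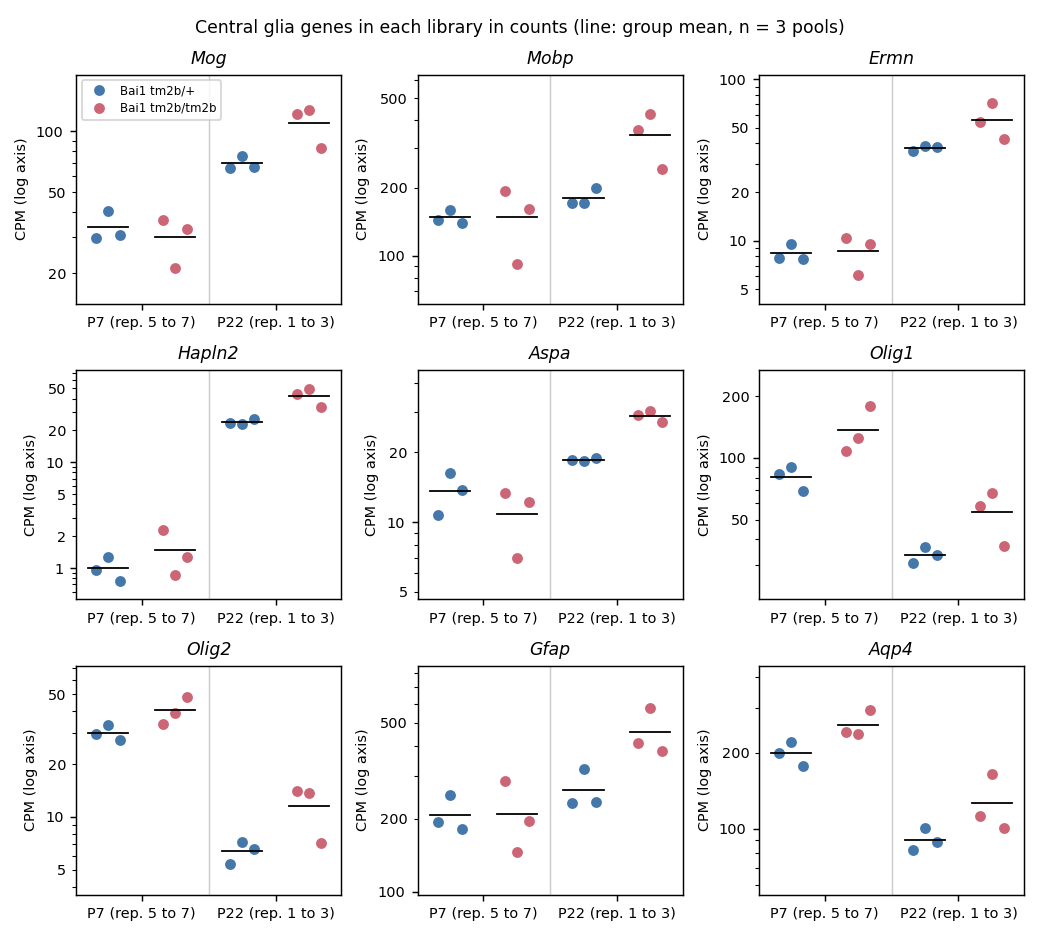
Level of each of the 9 genes in every library in counts, in CPM on a log axis, at P7 (replicates 5 to 7) and P22 (replicates 1 to 3), with blue points for Bai1tm2b/+, red points for Bai1tm2b/tm2b and a line at each group mean (n = 3 pools). At P22 the red points of 7 genes lie wholly above the blue ones and replicate 3 is the lowest red point for all 9, while Hapln2 stands near 1 CPM at P7 and above 20 CPM at P22.

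A gene was called when its adjusted p was under 0.05, its log2 difference was over 0.5 in size and its SE was under 0.5. In edgeR's quasi-likelihood fit over 15443 genes, 1.74% were called higher in Bai1tm2b/tm2b. Of the 9 genes, 8 were called higher, Aqp4 being the exception, and this count is a property of the choice of genes. It was 4 without control replicate 1, 4 without control replicate 3, 5 without Bai1tm2b/tm2b replicate 1 and 4 without Bai1tm2b/tm2b replicate 2. Libraries of the genotypes did not overlap, Bai1tm2b/tm2b higher, for 7 of the 9 genes and for 15.8% of all genes tested.

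The other genes of these cell types were tested in the same fit, from lists that were drawn up with earlier results of these data known and so are not independent evidence of a direction. Of 14 further oligodendrocyte genes, 6 rose by the call above and 0 fell, and 12 were nonoverlapping and higher. Their median log2 difference was 0.62, beside 0.01 over all genes tested. Gpr17, a receptor gene of differentiating oligodendrocyte precursors, rose from 14.1 ± 0.556 to 27.2 ± 9.83 CPM (log2 difference 0.95, SE 0.21, adjusted p = 0.0176, edgeR). The homeobox genes Nkx2-2 (log2 difference 0.96, SE 0.22, adjusted p = 0.0185, edgeR) and Nkx6-2 (0.75, SE 0.15, adjusted p = 0.0123) rose with it. Zfp488, a zinc finger gene of the oligodendrocyte lineage, rose from 0.366 ± 0.126 to 1.21 ± 0.695 CPM, a low level (log2 difference 1.72, SE 0.49, adjusted p = 0.0454, edgeR). Tmem88b rose by 0.67 (SE 0.16, adjusted p = 0.0225, edgeR). Bcas1, the most abundant gene of the list, was 177 ± 1.77 and 233 ± 25.1 CPM, and its adjusted p was 0.0081 at a log2 difference of 0.40 that was below the size asked for. Myrf, which encodes the myelin regulator named above, was 32.4 ± 1.52 and 47.0 ± 13.5 CPM (log2 difference 0.53, SE 0.16, adjusted p = 0.0545, edgeR).

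These calls leaned on single pools. The count of 6 was 1 without control replicate 1, 2 without control replicate 3, 3 without Bai1tm2b/tm2b replicate 1 and 10 without Bai1tm2b/tm2b replicate 3. All 6 calls were lost without Bai1tm2b/tm2b replicate 2, the pool with the highest summed level, although the log2 differences of Gpr17 (0.68 at the lowest) and Nkx2-2 (0.82 at the lowest) stayed above 0.5 in every fit with a pool left out.

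Of 14 further astrocyte genes, 1 was called. Mlc1, a membrane protein gene of astrocyte endfeet, rose from 24.6 ± 3.95 to 36.6 ± 6.89 CPM (log2 difference 0.58, SE 0.14, adjusted p = 0.0260, edgeR). This call was lost without control replicate 1, control replicate 3 or Bai1tm2b/tm2b replicate 2, where the log2 difference was 0.42 at its lowest. The median of the list was 0.27, and 7 of the 14 were nonoverlapping and higher. Fam107a (236 ± 5.999 and 294 ± 22.9 CPM, log2 difference 0.32, adjusted p = 0.0125, edgeR) was the most abundant. Bcan, a brain matrix proteoglycan gene, was 149 ± 7.82 and 163 ± 4.05 CPM, with a log2 difference of 0.13 (adjusted p = 0.171, edgeR). A list of 10 astrocyte genes shared with cells of the cochlea also had higher fitted levels, for all 10 genes, with a median of 0.25. Of these, 2 were called higher, beside 1.74% of all genes tested, and both calls held in each of the 6 fits with a pool left out. The summed level of this list overlapped between genotypes.

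Myelin genes shared by oligodendrocytes and Schwann cells differed less. Of 10 such genes, 1 was called, and the median log2 difference was 0.10. Mbp, a basic protein gene of both kinds of myelin, rose from 4385 ± 110 to 6377 ± 969 CPM (log2 difference 0.54, SE 0.10, adjusted p = 0.00892, edgeR), a call lost without Bai1tm2b/tm2b replicate 2 (the lowest value with a pool left out was 0.44). Cnp was 1292 ± 16.4 and 1362 ± 65.5 CPM.

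Genes of peripheral myelin lay on the other side of 0. Of 9 such genes, 0 were called in edgeR (4 had an unadjusted p under 0.05, and DESeq2 called 1), 8 had a lower fitted level in Bai1tm2b/tm2b and the median log2 difference was -0.12. Their summed level was 11107 to 12457 CPM in controls and 10326 to 10717 CPM in Bai1tm2b/tm2b, without overlap.

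Markers of other cochlear cells moved as well. The summed level of 11 spiral ganglion neuron genes was 18140 to 20163 CPM in controls and 13306 to 14984 CPM in Bai1tm2b/tm2b. Of these, 10 had a lower fitted level, 7 of them with an adjusted p under 0.05 in edgeR, and 1, Gata3, had a higher one. By the call above 2 were lower, Calb2 (log2 difference -0.54, adjusted p = 0.00292, edgeR) and Nefh (-0.52, adjusted p = 0.00505), beside 1.41% of all genes tested. The sum of 8 hair cell genes was 239 to 259 CPM in controls and 320 to 403 CPM in Bai1tm2b/tm2b. All 8 had a higher fitted level, and 2 of them were called, Otof (0.54, adjusted p = 0.0121, edgeR) and Ocm (0.70, adjusted p = 0.000547). Otof was not called without control replicate 3 or Bai1tm2b/tm2b replicate 3 (0.40 at the lowest), Nefh not without control replicate 3 or Bai1tm2b/tm2b replicate 2 (-0.46 nearest to 0) and Calb2 not without Bai1tm2b/tm2b replicate 3 (-0.48 nearest to 0). Of 10 genes of brain neurons, 5 passed the filter, and the sum of all 10 was 7.05 to 12.6 CPM in controls and 8.92 to 11.2 CPM in Bai1tm2b/tm2b, which overlap. The sum of 6 microglia and macrophage genes was 124 to 147 CPM in controls and 144 to 189 CPM in Bai1tm2b/tm2b. The part of these other cell types in the difference of the central glia genes was not tested.

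**Figure D2:**
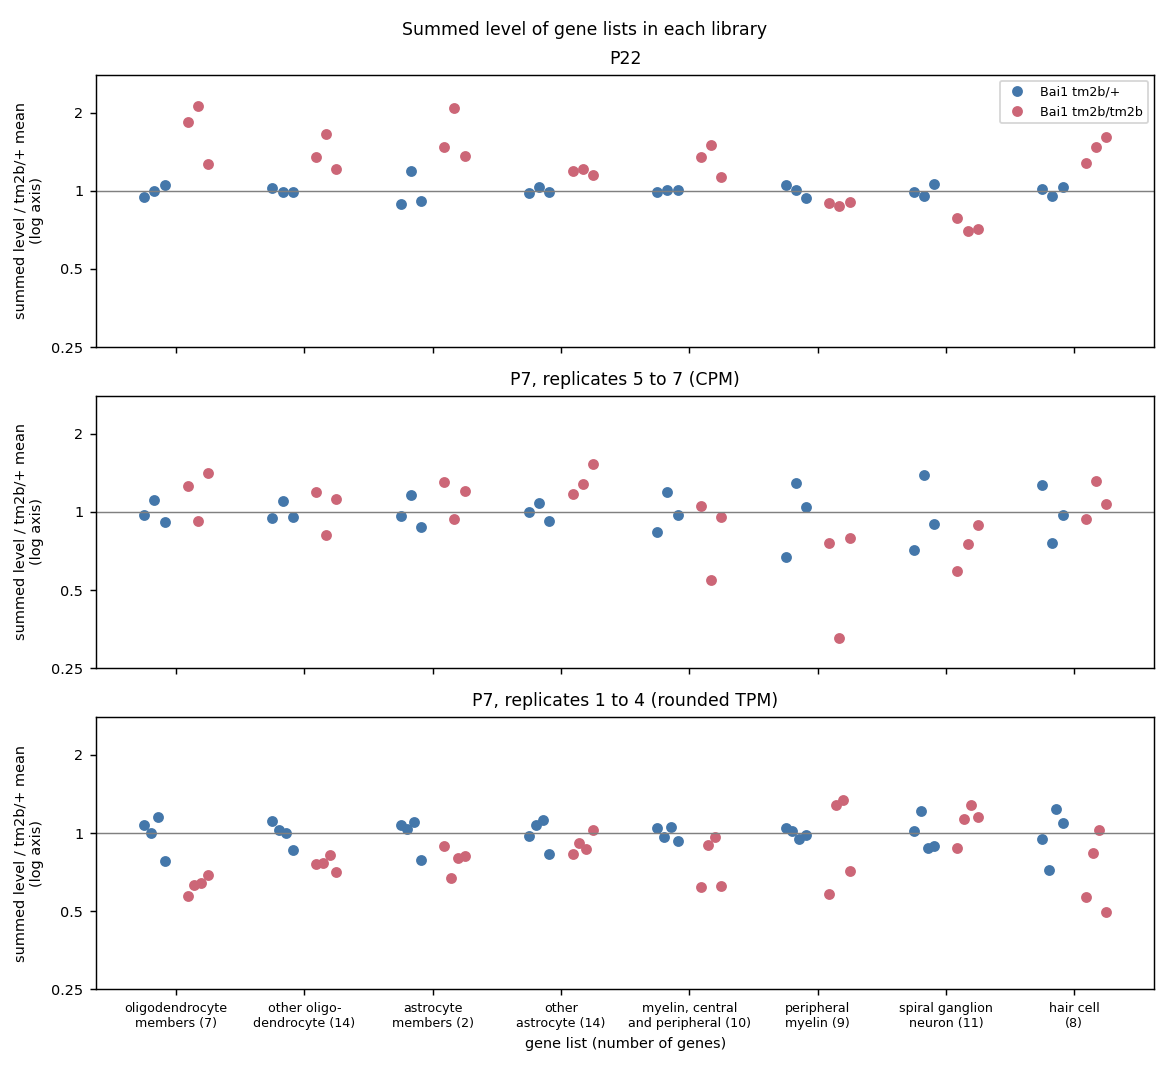
Summed level of 8 gene lists in each library, divided by the mean of the control pools of the same set and drawn on a log axis, with P22 at the top, P7 replicates 5 to 7 in the middle and P7 replicates 1 to 4 at the bottom (blue, Bai1tm2b/+; red, Bai1tm2b/tm2b). The oligodendrocyte genes of Bai1tm2b/tm2b pools lie at 1.27 to 2.12 at P22 and below every control pool at P7 replicates 1 to 4, while peripheral myelin at P22 lies between 0.87 and 0.91.

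At P7 in replicates 5 to 7, the mature myelin genes did not separate the genotypes. Mobp was 144, 160 and 139 CPM in controls 5 to 7 and 193, 91.9 and 162 CPM in Bai1tm2b/tm2b 5 to 7 (log2 difference 0.01, SE 0.24). Mog was 29.7, 40.4 and 30.99 CPM and 36.6, 21.2 and 33.1 CPM (-0.15, SE 0.21). Bai1tm2b/tm2b replicate 6 was the lowest of the 6 pools for both genes, and the groups overlapped. Gfap was 194, 250 and 182 CPM in controls and 287, 146 and 196 CPM in Bai1tm2b/tm2b, with the same low pool. In that pool the summed peripheral myelin genes were 0.327 times the control mean, the lowest of the 6, and the part of that in the low myelin values was not tested. All 9 peripheral myelin genes (median log2 difference -0.52) and all 10 shared with oligodendrocytes (-0.36) had a lower fitted level in Bai1tm2b/tm2b. Both sums overlapped between genotypes, and edgeR called 0 genes of either list (0 and 1 had an unadjusted p under 0.05).

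Ermn, Hapln2 and Aspa overlapped between the genotypes too. Ermn was 7.74 to 9.56 CPM in controls and 6.10 to 10.4 CPM in Bai1tm2b/tm2b. Aspa was 10.7 to 16.4 CPM and 6.97 to 13.4 CPM (log2 difference -0.33, SE 0.26). Hapln2 had 32 to 73 counts per library in controls and 27 to 84 in Bai1tm2b/tm2b, so its log2 difference of 0.56 had an SE of 0.40.

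The lineage factors and Aqp4 gave another order. Olig1 was 83.3, 90.6 and 68.7 CPM in controls and 108, 125 and 180 CPM in Bai1tm2b/tm2b (log2 difference 0.77, SE 0.19). Olig2 was 29.7, 33.4 and 27.3 CPM in controls and 33.8, 38.8 and 48.4 CPM in Bai1tm2b/tm2b (0.42, SE 0.14). Replicate 7 was highest and the groups of these genes did not overlap, by a small margin for Olig2. Aqp4 was 200, 222 and 177 CPM in controls and 243, 238 and 296 CPM in Bai1tm2b/tm2b (0.38, SE 0.12), again without overlap. Libraries did not overlap, Bai1tm2b/tm2b higher, for 3 of the 9 genes and for 5.76% of 16026 genes.

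In this set edgeR called 0 of 16026 genes (0%), with 763 at an unadjusted p under 0.05, and DESeq2 called 48, Olig1 among them. None of the 13 further oligodendrocyte genes tested or the 14 astrocyte genes was therefore called in edgeR (1 and 9 had an unadjusted p under 0.05, and DESeq2 called 0 and 3). The median log2 difference was 0.08 for the oligodendrocyte list and 0.60 for the astrocyte list, beside 0.00 over all genes. For the 9 of 10 brain neuron genes tested the median was 0.79, 7 had a higher fitted level in Bai1tm2b/tm2b, 4 were nonoverlapping and higher, and 0 were called in edgeR (4 at an unadjusted p under 0.05, and 0 in DESeq2). Their values ran from -0.28 to 2.79, and the sum of all 10 was 41.6 to 48.0 CPM in controls and 46.1 to 60.2 CPM in Bai1tm2b/tm2b, which overlap. The part of brain neurons in the levels of the glia genes was not tested. Ncan, a matrix proteoglycan gene of the brain, was 108 ± 13.8 CPM in controls and 167 ± 23.2 CPM in Bai1tm2b/tm2b (log2 difference 0.62, SE 0.13, adjusted p = 0.894, edgeR). The summed astrocyte list was 0.920 to 1.08 times the control mean in controls and 1.17 to 1.53 times in Bai1tm2b/tm2b, with replicate 7 highest.

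At P7 in replicates 1 to 4, the fitted values lay below 0. The deposited TPM of Mobp was 119, 93, 131 and 79 in controls 1 to 4 and 53, 66, 77 and 46 in Bai1tm2b/tm2b 1 to 4. Mog was 58, 43, 52 and 38 TPM in controls and 22, 36, 38 and 20 TPM in Bai1tm2b/tm2b. Mobp did not overlap between genotypes, and Mog met at 38 TPM. After TMM scaling neither overlapped, and with Aspa they were 3 of the 7 genes tested whose Bai1tm2b/tm2b pools all lay lower, beside 9.97% of all genes tested. Their differences on the log2(TPM + 1) scale were -0.91 (SE 0.19) for Mobp and -0.85 (SE 0.21) for Mog.

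Olig1 was 94, 104, 89 and 56 TPM in controls and 62, 54, 44 and 108 TPM in Bai1tm2b/tm2b (log2 difference -0.51, SE 0.24). Olig2 was 26, 26, 21 and 15 TPM and 17, 15, 13 and 27 TPM (-0.41, SE 0.20). In the TPM as deposited Bai1tm2b/tm2b replicate 4 was the highest of the 8 pools for both factors and the lowest for Mobp and Mog. After TMM scaling control replicate 2 was highest for both factors (105 against 100.2 for Olig1, and 26.2 against 25.1 for Olig2). Gfap was 176, 157, 171 and 125 TPM and 149, 107, 145 and 128 TPM (-0.36, SE 0.12), and the groups overlapped. Aqp4 was 59 to 108 TPM in controls and 64 to 99 TPM in Bai1tm2b/tm2b, and Aspa was 23 to 27 TPM and 22 to 25 TPM. Ermn was 4 to 7 TPM in controls and 2 to 4 TPM in Bai1tm2b/tm2b. Hapln2 was listed at 1, 1, 1 and 0 TPM in controls and at 0 in all 4 Bai1tm2b/tm2b pools, where whole numbers leave no resolution.

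In limma's fit of this set 11740 genes had a mean of at least 5 TPM, and 0.170% of them were called lower in Bai1tm2b/tm2b. Of the 7 central glia genes that passed that filter, 2 were called lower, Mobp and Mog, a count that the choice of genes also bears on and that is no test of them. No gene at all was called without any 1 of control replicates 2, 3 and 4 or Bai1tm2b/tm2b replicates 2, 3 and 4. The 9 further oligodendrocyte genes tested had a median log2 difference of -0.34, beside 0.01 over all genes. Bcas1 was 141 ± 10.5 and 111 ± 9.17 TPM, with a log2 difference of -0.34 (SE 0.08, adjusted p = 0.0454, limma) that was below the size asked for. Of 12 further astrocyte genes tested, 0 were called in limma, the one tool run on this set, and 0 had an unadjusted p under 0.05. Their median was -0.17. Other lists moved here too. The sum of 6 microglia and macrophage genes was 0.931 to 1.07 times the control mean in controls and 0.806 to 0.897 times in Bai1tm2b/tm2b, without overlap. Summed hair cell genes were 0.718 to 1.24 times in controls and 0.497 to 1.02 times in Bai1tm2b/tm2b, lowest in replicates 4 and 1. Of these 8 genes, 4 had a higher and 4 a lower fitted level, with a median log2 difference of 0.01. Only 1 was called in limma, Otof, which was higher (0.457 to 0.569 with 1 pool left out). Among all genes tested, 0.596% were called higher. Peripheral myelin varied from 0.582 to 1.34 times the control mean in the Bai1tm2b/tm2b pools. The part of these lists in the values of the central glia genes was not tested.

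**Figure D3:**
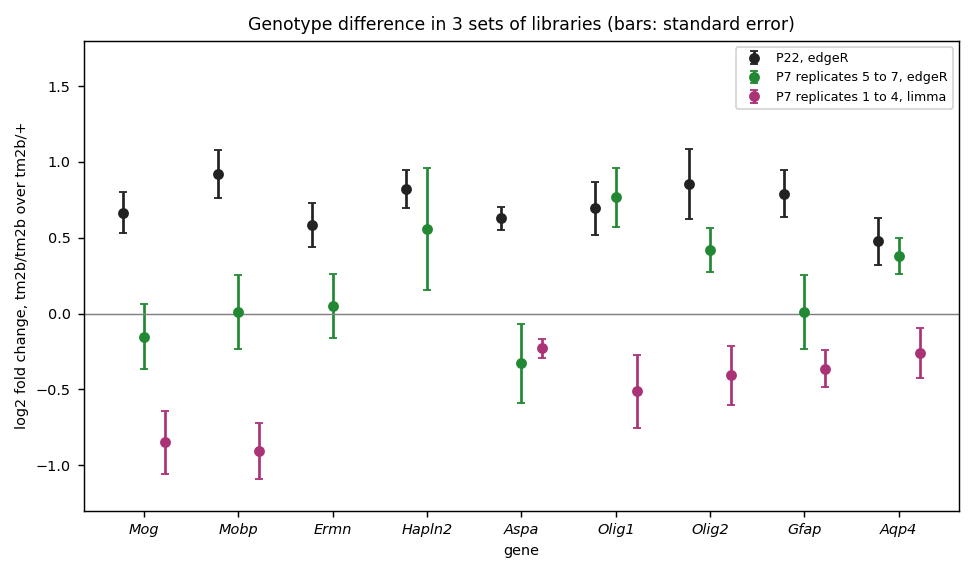
Log2 difference of each gene, Bai1tm2b/tm2b over Bai1tm2b/+, with its standard error, at P22 (black, edgeR, n = 3 pools each), P7 replicates 5 to 7 (green, edgeR, n = 3 each) and P7 replicates 1 to 4 (purple, limma on log2(TPM + 1), n = 4 each). All 9 black points lie between 0.48 and 0.92, the green points lie on both sides of 0, and the 7 purple points lie below 0, with Ermn and Hapln2 too low in TPM to be fitted.

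The summed oligodendrocyte genes thus gave ratios of genotype means of 0.80 at P22, 0.26 at P7 replicates 5 to 7 and -0.66 at P7 replicates 1 to 4 on the log2 scale, and the summed astrocyte genes 0.72, 0.20 and -0.33. The 2 P7 sets had the same age and genotypes and differed in replicate batch and unit, and those cannot be told apart.

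Between the ages, the genes of mature myelin were higher at P22 and the lineage factors were lower. The 12 libraries in counts were scaled together for this, and since each age was a separate batch, age and batch cannot be told apart. The means at each age take both genotypes together, so the ratios between ages also hold the P22 genotype difference. Hapln2 rose most, from 1.11 ± 0.471 CPM at P7 to 36.5 ± 12.5 CPM at P22 (SD, n = 6 pools each), a ratio of 32.9. Ermn was 7.70 ± 1.37 and 51.6 ± 15.1 CPM (6.70 times higher at P22), and Mog was 28.9 ± 5.93 and 99.4 ± 30.1 CPM (3.43 times). Aspa (2.36 times), Mobp (2.16 times) and Gfap (2.11 times) were also higher at P22 in every pool. Within controls their log2 ratios of P22 over P7 were smaller, at 0.73, 0.57 and 0.62. Within Bai1tm2b/tm2b they were 1.42 to 1.71, so these genes were higher at P22 in both genotypes. Olig2 went the other way, at 31.9 ± 6.95 CPM at P7 and 9.91 ± 4.18 CPM at P22, with no overlap (3.22 times higher at P7). Olig1 (2.04 times) and Aqp4 (1.73 times) had higher means at P7, but their ages overlapped. Ages did not overlap for 6 of the 9 genes with P22 higher and for 30.6% of 16314 genes, and for 1 of the 9 with P22 lower and 32.0% of genes.

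The ratio between the lineage and the myelin genes within a pool shifted accordingly. Counts of Olig1 were 0.449 to 0.531 times those of Mog in the 6 P22 pools, and 2.22 to 5.88 times in the 6 P7 pools in counts. Among the P7 pools, Bai1tm2b/tm2b replicates 6 and 7 had the highest ratios, 5.88 and 5.42, and the other 4 pools lay between 2.22 and 2.96.

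**Figure D4:**
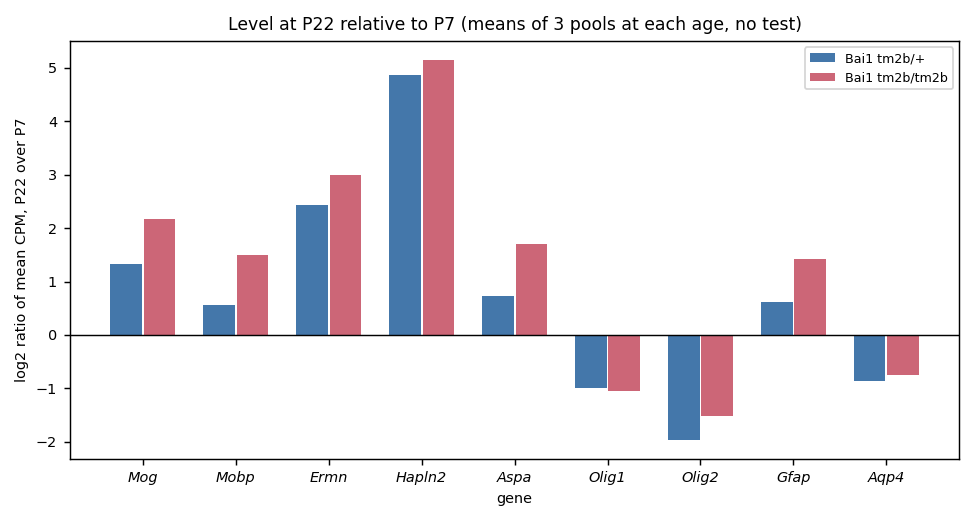
Log2 ratio of the mean level at P22 over that at P7 for each gene, from CPM scaled over all 12 libraries in counts (blue, Bai1tm2b/+; red, Bai1tm2b/tm2b; means of 3 pools at each age). Hapln2 is highest at 4.87 and 5.15, Ermn follows at 2.44 and 2.99, and Olig1, Olig2 and Aqp4 are below 0 in both genotypes.

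The spread of the 9 genes within a group was shared to different degrees. Each library's log2 CPM was taken as its deviation from the mean of its age and genotype group, over the 12 libraries in counts. These points share library, depth and dissection. Because group means were subtracted, fewer than 12 of them are independent. All 36 pairs of genes had a positive Pearson r, from 0.179 to 0.947. The 10 pairs among Mog, Mobp, Ermn, Hapln2 and Aspa gave 0.716 to 0.947. Olig1 and Olig2 gave 0.938 with each other, 0.179 to 0.592 with those 5 genes and 0.745 to 0.861 with Aqp4. Gfap gave 0.700 to 0.856 with the 5 myelin genes, and Aqp4 gave 0.300 to 0.726. The mean deviation of the 9 genes was lowest in P22 Bai1tm2b/tm2b replicate 3 (-0.37) and P7 Bai1tm2b/tm2b replicate 6 (-0.35), and highest in P22 Bai1tm2b/tm2b replicate 2 (0.30). In P7 Bai1tm2b/tm2b replicate 6 Mobp deviated by -0.61 but Olig2 by -0.02.

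**Figure D5:**
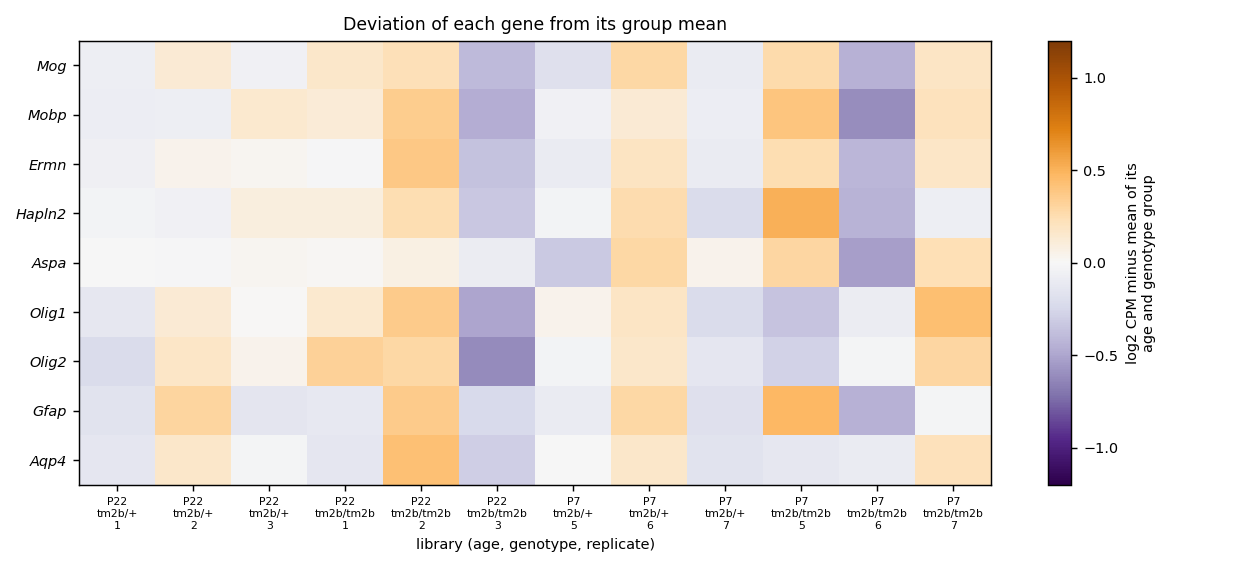
Deviation of log2 CPM from the mean of the same age and genotype for the 9 genes (rows) in the 12 libraries in counts (columns), orange for above and purple for below the group mean. P22 Bai1tm2b/tm2b replicate 2 is above and replicate 3 below for all 9 genes, while P7 Bai1tm2b/tm2b replicate 6 is far below for the myelin genes and Gfap and near 0 for Olig1, Olig2 and Aqp4.

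Among 15215 genes, the 5 outside the lists whose deviations were most like the mean of the 9 were Prr18 (r = 0.983), Ppp1r16b (0.972), Dbndd2 (0.965), Gria1 (0.963) and Tmeff2 (0.961), over n = 12 libraries. Gria1 encodes an AMPA receptor subunit. The median r over all genes was 0.0166 and 0.802% of genes were above 0.8. Lists of other cells were also related to the mean of the 9. Peripheral myelin genes gave 0.468 (Pmp2) to 0.692 (Ncmap), and microglia and macrophage genes gave 0.470 (C1qa) to 0.753 (Cx3cr1). Hair cell genes gave -0.390 (Tmc1) to -0.758 (Otof), and Fam107a of the astrocyte list gave -0.731. The part of these cells in the shared spread was not tested. Of the 9 genes themselves, Ermn (0.978) and Mog (0.964) were closest to that mean, which they are part of, and Olig1 (0.692) and Olig2 (0.681) were farthest from it.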

How the data were processed

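RNA was sequenced from apical coil pools of 4 mice as paired-end poly(A) libraries. Per the study's methods the authors used the nf-core RNA pipeline on mm10, and the submitters' processing notes name STAR, Salmon and DESeq2. The strand setting and annotation are not given in the sources used here. The P22 libraries and P7 replicates 5 to 7 were deposited as estimated counts per gene, and P7 replicates 1 to 4 stand in the P7 table as whole numbers that sum to between 999644 and 999777, read here as a score, which is TPM rounded by the authors before they were deposited. The fit planned for counts could not be used on the latter. Depth behind the TPM is unknown.

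Estimated counts were rounded and tested in edgeR 4.0.16 (R 4.3.3) with filterByExpr, TMM scaling and the quasi-likelihood test, separately for each set. The SE given with an edgeR difference was derived from that test, as the size of the log2 difference divided by the square root of its F statistic. TPM were TMM-scaled, log2(TPM + 1) transformed and fitted with limma 3.58.1 with a trend, keeping genes that averaged 5 TPM or more, and such a scale understates the change of low genes. P-values were Benjamini-Hochberg adjusted over all genes tested. All 9 genes are named, and from each list the called genes (up to 4 per direction) and up to 3 of the most abundant. The genes, lists and tests were chosen with earlier results of these data known, so the fold changes of the 9 genes have no test. Spread is the SD over pools. DESeq2 1.42.0, other scalings and filters, a replicate block and leaving out each pool were alternatives. The scripts were tested on simulated data. Promoters came from RefSeq. Results on some listed genes are not reported here.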

Additional observations from a re-analysis of the deposited data

Results flagged for a closer look

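The log2 ratio of the genotype means at P7 replicates 1 to 4 was -0.83 for Mog, -0.91 for Mobp, -0.93 for Ermn and -0.24 for Aspa after TMM scaling, and in each case every Bai1tm2b/tm2b pool lay below every control pool. At P22 every Bai1tm2b/tm2b pool of the same 4 genes lay above every control pool. The difference between these sets was not tested, since they are in different units. In the TPM as deposited, Mog and Ermn touched and Aspa overlapped, so of the 4 genes Mobp alone was nonoverlapping there.

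Hapln2 in P7 control replicate 4 lay apart from the other 3 controls of its set, with a gap of 0.920 of the whole range. It was listed at 0 TPM against 1 TPM in the others, a step of 1 in whole numbers. Of 22 groups of 4 pools examined, chance would set apart about 1 in 20.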

How the results depend on the processing

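At P22, the 487 calls in either direction were 270 to 588 with 1 pool left out, and the 8 calls among the 9 genes were 4 to 9. With no scaling beyond the library total, 399 of 533 calls were higher in Bai1tm2b/tm2b against 269 of 487 with TMM, and the log2 differences of the 9 genes remained above 0 in each of these fits. At P7 replicates 5 to 7, DESeq2 called 48 genes where edgeR called 0 (763 at an unadjusted p under 0.05). At P7 replicates 1 to 4, the 90 calls were 0 with no filter on low values, 0 with a mean of at least 1 TPM (4390 and 4342 at an unadjusted p under 0.05 in limma), 293 with TPM as deposited and 0 to 334 with 1 pool left out (at least 2876 genes had an unadjusted p under 0.05 in limma in each of the fits with a pool left out). TPM as deposited put the median log2 difference of all genes at 0.12, against 0.01 with TMM, and 284 of the 293 calls were then higher, against 70 of 90. There Mobp was at -0.79 and Mog at -0.74. The P22 over P7 ratio of the oligodendrocyte genes, with both genotypes together, was 0.84 from the sum and 1.24 as the median over genes. The cause of these shifts was not tested, except that the filters changed the number of genes tested (15922 and 14606 in place of 11740).

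Same-numbered pools had a correlation over all genes of at most 0.0806 in any set, after group means were subtracted. Such a value from so few pools cannot show whether the pools were paired. At P22 the SE of Gfap was 0.16 without a replicate block and 0.06 with it, and that of Aspa was 0.07 and 0.09. With a replicate block, 466 genes were called at P22 (8 of the 9 genes), 0 at P7 replicates 5 to 7 (641 at an unadjusted p under 0.05 in edgeR) and 0 at P7 replicates 1 to 4 (3209 at an unadjusted p under 0.05 in limma).

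With 1 pool left out, the summed oligodendrocyte genes ranged from 0.64 to 0.98 at P22, from 0.12 to 0.42 at P7 replicates 5 to 7, from -0.76 to -0.58 at P7 replicates 1 to 4 and from 0.67 to 0.93 between the ages. The summed astrocyte genes ranged from 0.51 to 0.86, from 0.10 to 0.32, from -0.43 to -0.26 and from 0.21 to 0.48. At P7 replicates 5 to 7, Mobp, Mog, Ermn and Gfap, which were close to 0, took either sign.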
